A study of Mus musculus with 21 samples.

Results

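The Hoxc cluster on mouse chromosome 15 was examined in lists of Ash1L ChIP-seq peaks, over an interval of 120 kb that holds the 9 protein-coding Hoxc genes, the noncoding RNA gene Hotair and the microRNA genes Mir196a-2 and Mir615. Its members are 13 merged regions of 259 in the whole merged list, and they were chosen by the presence of a called peak in this interval. The peaks and their scores therefore chose the members, and they are given below as a description, with no test. The lists of replicates 1, 2 and 3 held 18, 4 and 12 regions here, of 240, 35 and 228 in all. The interval is known by Hoxc5, Hoxc10 and Hoxc11, but the protein-coding transcript of Hoxc5 overlapped no peak of any list. Regions fall to Hoxc5 only through a long noncoding transcript of the gene that runs across its neighbours, so the stretch is called here by the genes it covers, Hoxc11, Hoxc10 and Hoxc9.

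The study asked how Ash1L acts in the fusion of myoblasts. Chromatin was taken from C2C12 cells, a line of mouse myoblasts, on day 1 of differentiation in medium with little serum, in experiments that the labels call independent, 3 in number. In ChIP-seq, chromatin fragments bound by a protein are precipitated with an antibody, here against Ash1L, and sequenced, and a peak marks a stretch with more reads than input chromatin. The samples include 1 input, which served as the control for all 3 lists, so agreement between the lists is not free of what they share. All peaks come from a single line in 1 condition, with no sample lacking Ash1L among them, and with no read counts in the lists the sequencing depth of each experiment is unknown.

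Hox genes encode homeodomain transcription factors that set position along the body axis, and their order along the chromosome follows their order of expression in the embryo. The clusters are classic targets of Polycomb repression and of the opposing Trithorax proteins, to which Ash1L belongs. Ash1L methylates lysine 36 of histone H3, a mark that counteracts the methylation of lysine 27 laid down by Polycomb.

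The 13 merged regions covered 37162 bp, which was 31.0% of the interval and 11.1% of all bases in the merged list. Their mean width was 2859 bp, against 1208 bp for the other 246 merged regions, and their medians were 914 bp and 464 bp. A width of at least 2 kb was reached by 5 of the 13, beside 17% of all merged regions. Joined wherever less than 2 kb lay between them, 12 of the 13 formed 1 domain of 42135 bp, at chr15:102944792-102986926 (mm10, the same assembly as GRCm38). Peaks covered 87.1% of this domain, and its 11 gaps measured 101 to 1504 bp, with a median of 259 bp. Among the 138 domains that the whole merged list made by the same joining, it was the widest, ahead of 21545 bp at 52218973–52240517 on chromosome 6, in the Hoxa cluster. This rank was taken only for the merged list with joining below 2 kb. The width of the domain depended on the joining and on the list. With regions joined below 500 bp, the widest domain of the interval was 20945 bp. The list of replicate 2 alone, an alternative chosen after seeing the data, gave 14049 bp.

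The domain began inside Hotair, 730 bp from the 3′ end of that gene, and ended 1827 bp beyond Hoxc9. On its left lay Hoxc12, whose last base was 6183 bp from the first peak. On its right lay Hoxc8, whose transcription start site (TSS) was 3681 bp from the last base of the domain. The remaining region, 451 bp at chr15:103005319-103005769, stood 18392 bp further on and was listed in replicate 1 alone, with a −log10 q of 7.24. The lists give this score for each summit, a local maximum within a peak, in a column without a name. It was read as −log10 q from the study's peak caller and from its lowest value, 1.30, in replicate 2, and the lowest values in replicates 1 and 3 were 2.30 and 2.38. By this reading a larger score stands for a smaller q value. The first 24792 bp of the interval and the 34231 bp after its last region held no peak. The nearest merged region outside the interval ended 17260772 bp before the first member, and of the 26 merged regions on chromosome 15 none lay beyond the last.

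Of the 9 Hoxc genes, 3 shared bases with a merged region when each gene was taken as its shortest transcript with a full coding sequence. These were Hoxc11, Hoxc10 and Hoxc9, neighbours on the plus strand, and each of them was touched by a region of all 3 lists. Hoxc13 and Hoxc12 at one side, and Hoxc8, Hoxc6, Hoxc5 and Hoxc4 at the other, were skipped. A TSS of any annotated transcript lay inside 5 of the 13 regions, beside 23.6% of all merged regions. In the regions of 1024 bp and 4715 bp, ahead of Hoxc11, these were TSSs of small noncoding RNA genes only.

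Hoxc11 encodes a homeodomain factor of the posterior group, whose genes act in the hindlimb and the lower trunk. It lies at 102954427–102957708, and all of its 3282 bp, both exons and the intron between them, were inside a region of replicate 1, of replicate 2 and of replicate 3. The regions began ahead of its TSS in each list, by 351, 42 and 1003 bp in replicates 1, 2 and 3. It was the only Hoxc gene covered from end to end, in the merged list and in each of the 3 lists.

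Hoxc10, another posterior gene, lies at 102966796–102971893 and was covered over 3976 of its 5098 bp. By list, the share was 58.9% in replicate 1, 24.6% in replicate 2 and 72.4% in replicate 3. Its TSS lay 5 bp inside a region of replicate 1 and 64 bp inside a region of replicate 3, whereas the region of replicate 2 began 384 bp downstream of the TSS. Exon 1 was covered over 813, 429 and 813 of its 813 bp in replicates 1, 2 and 3. Exon 2 fared less evenly, with 745, 0 and 641 of its 1096 bp. Its coding part, 275 bp, had 245 bp inside a merged region, all of them in the 283 bp region at 102970828–102971110, which only replicate 1 listed. The uncovered bases of the gene were mostly in its intron, of which 2239 of 3189 bp lay in merged regions.

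Hoxc9 lies at 102977032–102985099 by the transcript used, and 6977 of its 8068 bp were covered. The lists of replicates 1, 2 and 3 covered 81.3%, 27.5% and 86.5% of it. Its first intron, 3990 bp, was covered in full in replicates 1 and 3 and over 1031 bp in replicate 2. The start of the coding sequence fell into a gap: of exon 2, which is 1099 bp long and holds 538 bp of coding sequence, 82 bp lay in a merged region. Exon 3 had 1131 of 1205 bp covered, including all of its 242 coding bases. The gap, 1017 bp from 102981128 to 102982144, was present in all 3 lists.

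Peaks also lay between the covered genes. The 9087 bp between Hoxc11 and Hoxc10 were covered over 90.5%, 90.0% and 96.4% in replicates 1, 2 and 3, which made it the stretch between neighbouring Hoxc genes with the highest coverage in replicate 2. The 5138 bp between Hoxc10 and Hoxc9 were covered over 96.5%, 53.4% and 100%. Between Hoxc12 and Hoxc11 the shares were 35.6%, 0.266% and 41.9%, and between Hoxc9 and Hoxc8 they were 6.92%, 0% and 16.7%. The 7942 bp from Hoxc13 to Hoxc12, the 1933 bp from Hoxc6 to Hoxc5 and the 16965 bp from Hoxc5 to Hoxc4 held no peak. In all, 56.7% of the bases in the 13 regions lay outside the gene spans used.

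Hoxc5 encodes an anterior member of the cluster. Its coding transcript lies at 103013815–103017429, 8046 bp beyond the nearest region, which is the isolated one of replicate 1. The nearest regions of replicates 2 and 3 were 29295 and 26889 bp away. The annotation also gives Hoxc5 a noncoding transcript of 48234 bp at 102967443–103015676, and 8 merged regions with 16813 bp overlapped it. Its exon 1, 166 bp within exon 1 of Hoxc10, was covered in full in each list, while its exon 2 had no covered base. The other 16647 covered bases were intron of this transcript, and they are the bases at Hoxc10, Hoxc9, Mir196a-2 and the stretches between and beyond them. The isolated region also lay in introns of 2 noncoding transcripts of Hoxc6, whose coding TSS was 3804 bp away.

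Hotair is transcribed from the minus strand between Hoxc12 and Hoxc11, and its RNA is known for a proposed role in Polycomb recruitment. Peaks covered 1434 of its 3669 bp, with 481, 0 and 1073 bp in replicates 1, 2 and 3. The covered bases lay in exon 2, with 1024 bp, and in the intron, with 410 bp. Exon 1 held none, and the TSS of Hotair at 102947730 was 259, 6655 and 538 bp from the next region in replicates 1, 2 and 3.

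The microRNA gene Mir196a-2, between Hoxc10 and Hoxc9, lies at 102973350–102973434 and was inside a region of replicates 1 and 3, over all of its 85 bp. Replicate 2 had no region there. miR-196 is known to target transcripts of Hox genes, and its mature forms are shown because their gene sits inside the domain. They are credited to RefSeq (GRCm38.p6, plus strand), with the seed, bases 2 to 8, in capitals.
mmu-miR-196a-5p, chr15:102973365-102973386: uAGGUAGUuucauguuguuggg
mmu-miR-196a-2-3p, chr15:102973401-102973422: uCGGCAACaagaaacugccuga
Mir615, at 103014910–103015001 within the span of the coding transcript of Hoxc5, was 9141 bp from the nearest region.

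All 3 lists held 4 of the 13 regions, beside 13.5% of all merged regions. At least 2 lists held 9 of the 13, beside 47.5% of all merged regions. The first count fell to 2 when at least 50% of a region had to be covered, or when summits that scored below 5 were dropped. The latter count fell to 4 without replicate 1 and to 4 without replicate 3. Neighbouring regions of 1 domain are not independent, and the presence of a peak chose them, so these counts carry no test. The regions held by a single list were 102946075–102946484 and 102986435–102986926 in replicate 3, and 102970828–102971110 and 103005319–103005769 in replicate 1. By base, 17586 bp (47.3% of the members) lay in regions of all 3 lists, 13142 bp (35.4%) in replicates 1 and 3 together and 133 bp in replicates 2 and 3 together. Replicate 3 alone added 4535 bp (12.2%) and replicate 1 alone 1766 bp (4.75%). Over all merged regions, 37.0% of the bases lay in all 3 lists, 30.4% in replicates 1 and 3 together, 19.95% in replicate 3 alone and 9.51% in replicate 1 alone. No base of the interval was listed by replicate 2 alone.

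The widest member, 12977 bp at chr15:102953424-102966400, holds Hoxc11 and most of the stretch towards Hoxc10. Its highest −log10 q was 49.5 in replicate 1, 31.7 in replicate 2 and 78.6 in replicate 3, the highest of the interval in each list. Within its own list this was number 9 among merged regions in replicate 1, and number 4 in replicates 2 and 3. The lists divided it differently. Replicate 3 gave 1 region of 12977 bp with 45 summits, and replicate 2 gave 1 region of 11505 bp with 10 summits. Replicate 1 gave 3 regions with 43 summits, of which 274 bp lay ahead of Hoxc11, 4552 bp over Hoxc11 and beyond it, and 7302 bp from 102958761 to 102966062, clear of any Hoxc coding transcript.

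The lists state the order of the summits in a region but not where each one lies. With the summits of the member divided in this order into 3 parts of about equal number, the highest scores of the parts were 45.8, 30.3 and 49.5 in replicate 1, 20.8, 14.2 and 31.7 in replicate 2, and 53.8, 53.8 and 78.6 in replicate 3. Their medians were 24.8, 17.8 and 33.9 in replicate 1, 12.5, 8.89 and 13.8 in replicate 2, and 28.6, 23.2 and 29.7 in replicate 3. The median was thus lowest in the middle part of each list. The parts held only 3, 3 and 4 summits in replicate 2, and they need not cover the same bases in different lists. The first summit also scored low in each list, at 6.08, 1.54 and 5.40 in replicates 1, 2 and 3. The last summit was low in replicate 3 alone, at 4.27, beside 42.6 and 19.8 in replicates 1 and 2. In replicate 1 the region over Hoxc11 rose from 3.80 at its first summit to 45.8 at number 11 and was at 8.72 at number 12 and 30.3 at number 16. The next region, between the genes, reached its lowest score, 13.8, at numbers 9 and 10, its highest, 49.5, at number 20, then 19.1 at number 22 and 42.6 at number 24. In replicate 2 the scores were 1.54 and 20.8 at summits 1 and 2, 2.75 at number 5 and 31.7 at number 9 of 10. In replicate 3 they were 53.8 at number 12, 9.34 at number 26, 78.6 at number 35, 22.4 at number 37, 68.1 at number 42 and 4.27 at number 45, the last. The highest score of each list was in the last part. In replicate 1 it lay between Hoxc11 and Hoxc10, and its lead over the region with Hoxc11 was small, 49.5 against 45.8.

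The next member by score, 9875 bp at chr15:102971253-102981127, runs from the 3′ end of Hoxc10 over Mir196a-2 into Hoxc9. It had 36.1, 10.1 and 33.8 as its highest −log10 q in replicates 1, 2 and 3, from 27, 4 and 30 summits. Replicate 2 listed only 3845 bp of it, at 102974288–102978132, which spans the TSS of Hoxc9 and leaves out Hoxc10 and Mir196a-2. Replicate 1 split the member into regions of 442, 2204 and 6861 bp, with 7.72, 21.8 and 36.1 as their highest scores, of which the region of 2204 bp holds Mir196a-2.

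At the TSS of Hoxc10, the region of 2202 bp at chr15:102966732-102968933 had 19.3, 2.33 and 20.1 in replicates 1, 2 and 3, from 4, 2 and 5 summits. Its scores in replicate 2, 2.33 and 1.37, included the lowest score of any summit in the interval. The region of 2881 bp at chr15:102982145-102985025, over intron 2 and exon 3 of Hoxc9, had 17.4, 4.64 and 24.4, from 7, 2 and 7 summits. Among the 4 members in all lists, that of Hoxc11 stood first and that at the start of Hoxc9 next in each replicate. The other 2 changed places, since the region at the Hoxc10 TSS was the higher in replicate 1 and the lower in replicates 2 and 3. Scores of different lists are not levels of binding on 1 scale, since −log10 q also depends on the depth of each library.

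The flank between Hotair and Hoxc11 had lower scores. The region of 4715 bp at chr15:102947989-102952703, which holds the small noncoding RNA genes Gm28011 and Gm27535, reached 11.3 in replicate 1 and 14.6 in replicate 3, with 9 summits in each. Next to it, 512 bp at 102952805–102953316 had 9.11 in replicate 1 and 2.38 in replicate 3. The latter was the lowest score of any summit in the list of replicate 3. Within Hotair, 1024 bp at 102944792–102945815, with the small RNA gene Gm27337, had 6.83 and 2.40 in replicates 1 and 3, and 410 bp at 102946075–102946484 had 9.59 in replicate 3 alone. Another small RNA gene, Gm27443, overlaps the start of Hotair and had no covered base.

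Small members also lay within and behind the covered genes. In the intron of Hoxc10, 914 bp at 102969754–102970667 had 6.64 in replicate 1 and 7.35 in replicate 3, and the region at its exon 2 had 4.84 in replicate 1. Behind Hoxc9, 426 bp at 102985151–102985576 had 6.17 in replicate 1 and 5.36 in replicate 3, and the last region of the domain, 492 bp at 102986435–102986926, had 5.49 in replicate 3. Each of these 4 regions had 1 summit in each list that held it. None of them was listed in replicate 2.

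The interval held 7.50%, 11.4% and 5.26% of the regions in replicates 1, 2 and 3. It held 12.5%, 14.0% and 11.8% of all summits in the same order, and 12.6%, 13.2% and 11.9% of all covered bases. The numbers behind the last 2 sets of shares were 97, 18 and 102 summits, and 32494, 17719 and 35396 bp. The median −log10 q of the summits here was 16.0, 4.86 and 20.1, beside 12.7, 6.95 and 14.6 over all summits of the same list. It was thus above the median of the whole list in replicates 1 and 3 and below it in replicate 2. Summits were about as dense as elsewhere, with 2.99, 1.02 and 2.88 per kb of listed region here and 3.02, 0.961 and 2.92 per kb in the whole lists.

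Replicate 2 listed the core of the domain alone, from 102954385 to 102984520. Its 4 regions began 42 bp ahead of Hoxc11 and ended inside the last exon of Hoxc9, and its scores were the lowest of the 3 lists in each of the 4 members. Replicate 1 reached from 102945335 to the isolated region, and replicate 3 from 102944792 to 102986926. Depth, which these lists do not give, cannot be told apart from other differences between the experiments.

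The sequence of the members was not used to choose them. Their GC content was 49.8%, beside 48.7% in the uncovered part of the interval and 47.2% in the other merged regions on chromosomes. The ratio of observed to expected CpG was 0.359 in the members and 0.350 in the uncovered part of the interval, and 0.544 in the other merged regions. Taken region by region, the median ratio was 0.301 in the members and 0.424 in the other merged regions. Within the members, the bases inside all 3 lists had a ratio of 0.441, and the gaps inside the domain had 0.445. A GC content of at least 50% together with a ratio of at least 0.6 was met by 1 of the 13 members, the isolated region of replicate 1 with 53.0% and 0.685, and by 50 of the other 229 merged regions on chromosomes (21.8%). The member with Hoxc11 had 49.9% and 0.411, that at the Hoxc10 TSS 53.7% and 0.516, and the region in the intron of Hoxc10 had no CpG. Among the coding transcripts, the ratio was highest in the skipped gene Hoxc12, at 0.707, followed by Hoxc11 at 0.599 and the skipped gene Hoxc6 at 0.554. Bases marked as repeats made up 16.0% of the members and 16.0% of the uncovered part.

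Short motifs were counted on both strands in tiles of 300 bp. The letters CANNTG, the E-box bound by myogenic factors such as MyoD, were in 59.8% of 117 tiles of the members, in 63.3% of 270 tiles of the uncovered part, and in 66.0% of 966 tiles of all merged regions on chromosomes. TAATTA, a core of homeodomain sites, was in 8.55%, 7.04% and 9.94% of these tiles. GCCAT, the core of the YY1 site, was in 29.9%, 33.3% and 32.9%, and CGCG was in 20.5%, 17.4% and 26.3%. Matches of different motifs may share bases. GAGAG was in 67.5% of the tiles of the members, 67.8% of the uncovered part and 58.7% of all merged regions. Its mean number per tile, overlapping matches included, was 3.56, 2.29 and 1.98, and 2.96 inside all 3 lists. Thus the share of tiles with GAGAG was alike inside and outside the peaks of the cluster, while the mean number per tile was higher in the members. Overlapping matches in a few tiles can raise such a mean, and the spread over tiles was not examined. In the 56 tiles inside all 3 lists, CGCG was in 32.1%, GAGAG in 73.2%, CANNTG in 57.1%, TAATTA in 10.7% and GCCAT in 28.6%.

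The middle 200 bases of the stretches in Hoxc10, ahead of Hoxc9 and in Hoxc9 that lay in all 3 lists, and of the isolated region, are shown as examples of the covered sequence. They were read from RefSeq GRCm38.p6 on the plus strand, and the capitals mark CG. A CG was present in 82.9% of the tiles of 200 bp in the members and in 90.4% of those in all merged regions on chromosomes, with medians of 3 and 4 per tile. In the members inside all 3 lists the share was 90.7% with a median of 5, and in the uncovered part it was 80.3% with a median of 2. The windows printed here have more CG than these medians, so they are not typical of the members. The windows in the intron of Hoxc10 and ahead of Hoxc9 have 9 CG each. The window at the start of exon 3 of Hoxc9 has 11 and that of the isolated region has 13.
Hoxc10, chr15:102967707-102967906: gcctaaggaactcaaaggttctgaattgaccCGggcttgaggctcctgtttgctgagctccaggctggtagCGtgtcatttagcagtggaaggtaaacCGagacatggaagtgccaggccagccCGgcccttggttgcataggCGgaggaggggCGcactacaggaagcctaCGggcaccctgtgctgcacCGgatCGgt
Ahead of Hoxc9, chr15:102976110-102976309: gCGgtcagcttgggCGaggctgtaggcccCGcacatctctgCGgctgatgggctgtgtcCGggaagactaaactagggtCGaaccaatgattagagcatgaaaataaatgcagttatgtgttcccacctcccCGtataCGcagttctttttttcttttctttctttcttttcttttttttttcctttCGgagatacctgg
Hoxc9, chr15:102983863-102984062: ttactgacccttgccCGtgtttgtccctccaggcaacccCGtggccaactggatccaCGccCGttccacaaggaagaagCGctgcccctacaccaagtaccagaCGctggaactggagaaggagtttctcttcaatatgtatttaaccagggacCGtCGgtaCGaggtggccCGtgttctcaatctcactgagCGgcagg
Isolated region, chr15:103005444-103005643: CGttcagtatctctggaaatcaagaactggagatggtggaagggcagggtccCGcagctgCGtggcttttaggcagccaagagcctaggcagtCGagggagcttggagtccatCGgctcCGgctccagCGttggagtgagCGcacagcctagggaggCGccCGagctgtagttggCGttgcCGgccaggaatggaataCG

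The other Hox clusters were taken from the first to the last coding gene for comparison. The Hoxb and Hoxd clusters, with 10 and 9 coding genes, overlapped 0 merged regions. Hoxa had 11 merged regions over 27026 bp, 25.7% of the cluster, and Hoxc had its 13 over 32.1%. By the transcript rule used for Hoxc, 5 of 11 Hoxa genes were covered. In the merged list, Hoxa9 and Hoxa10 were covered in full, Hoxa11 over 37.2%, Hoxa7 over 39.8%, and Hoxa3, by a transcript of 44054 bp, over 97 bp. Paralogue groups 9, 10 and 11 thus had covered genes in both Hoxa and Hoxc. Hoxb9, Hoxd9, Hoxd10 and Hoxd11 were not covered, and Hoxb has no gene of groups 10 and 11. The extent differed, since Hoxc11 was covered in full where Hoxa11 was covered in part, and Hoxc9 and Hoxc10 in part where the merged list covered their Hoxa paralogues in full. By list, Hoxa9 was covered in full in each, and Hoxa10 over 83.8%, 100% and 89.0% in replicates 1, 2 and 3. The highest score in Hoxa was above that of Hoxc in each list, with 68.3, 49.2 and 100.9 in replicates 1, 2 and 3.

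For comparison, the 2 merged regions with the highest score in any list are given, an order that rests on scores of different lists. The region with the highest, 589 bp at 4626134–4626722 on chromosome 17, had 280.4 and 35.8 in replicates 1 and 3 from 1 summit each and was missing from replicate 2. The next, 5643 bp at 85663296–85668938 on chromosome 15, had 79.9, 49.3 and 110.8. It had 20, 5 and 17 summits, where the member with Hoxc11 had 43, 10 and 45. The merged region at Hoxa9 and Hoxa10 was close to that member, at 12605 bp with 45, 12 and 43 summits.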

How the data were processed

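Per the study's methods, the authors trimmed the reads, mapped them to mm10 with BWA-MEM, dropped duplicates, improper pairs, multiply mapped reads and blacklisted stretches, and called peaks with MACS2 for each replicate against input. The deposited lists give each region, once for each of its summits, with a value in column 5, which has no name and was read here as −log10 q. The authors' merged list was deposited in 3 identical copies, and its 259 regions equal those of the 3 lists merged here, although the methods speak of broad peaks. Positions are 1-based. The members and the lists of genes and motifs were chosen with earlier results of these data known.

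Regions were compared with GENCODE M21 and the RefSeq sequence of GRCm38.p6 in Python 3.11.15 with numpy 2.4.6. The interval functions were tested on simulated data against bedtools 2.31.1. A region was in a list when they shared at least 1 bp. Genes were taken by the shortest transcript with a full coding sequence. All annotated genes and merged regions of the interval were to be named, with the highest summit of each list in each region, and, outside it, the other Hox clusters and the 2 regions ranked highest by score.

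Comparisons of summit positions and windows at summits had been planned, but the lists used here give no position within a region. CpG content was therefore taken over whole merged regions. Sequence windows in some of the stretches are not reported here. RNA-seq, histone marks and control chromatin were not used here. No test was made, since the presence of a peak chose the members.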

Additional observations from a re-analysis of the deposited data

How the results depend on the processing

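The 7 results that could be computed were recomputed under 44 alternatives, 33 planned and 11 chosen after seeing the data, and 33 of the 44 kept counts within 1.5 times and values within 1 SD of the 3 lists. Taking the list of replicate 2 alone lowered the covered bases from 37162 to 17719, the width of the domain from 42135 to 14049 bp (added), and raised the CpG ratio from 0.359 to 0.440 (added). The median CpG ratio over the 13 regions was 0.301 (added). Regions in all 3 lists fell from 4 to 2 when at least 50% of the region had to be covered, and also to 2 with only summits of a −log10 q of at least 5. Regions in at least 2 lists ranged from 4, without replicate 1 or replicate 3, to 9, without replicate 2, since replicate 2 held only 4 regions. The domain measured 20945 bp with regions joined below 500 bp and 60978 bp below 20000 bp, where it takes in the isolated region. With all annotated transcripts, 5 Hoxc genes were covered in place of 3, through noncoding transcripts of Hoxc5 and Hoxc6. At least 10% of the longest transcript gave 4, with Hoxc5 added. With each replicate left out, the covered genes were Hoxc11, Hoxc10 and Hoxc9 each time. Without replicate 2 the merged regions, bases and width equalled the main ones. The distance between summits of different lists, and windows of other sizes at summits, could not be run, since the lists used here give no summit positions. No paired analysis was possible because the result comes from no test. Unknown depth limits any comparison of scores between lists.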
